A study of Mus musculus with 16 samples.

Results

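The genes described here are 30 genes of the postsynaptic density and its surroundings in fetal mouse brain. They were taken by symbol from the expression table of each library: 4 Dlg scaffolds of the MAGUK class, 4 Dlgap linkers, 3 Shank scaffolds, 3 Homer linkers, 3 neuroligins and Lrrtm2, 4 CaMKII subunits, Gphn, the AMPA receptor partners Cnih2 and Cacng2, and 5 regulators of small GTPases. All 30 were listed in each of the 16 libraries, out of 16228 symbols listed in any library and 13376 listed in all. RNA was sequenced from the brain of wild-type (WT) fetuses at embryonic day 18.5 whose exposure, called prenatal in the title of the series, was an enriched environment (EE) or standard habitation (SH). Hippocampus gave 3 EE and 3 SH libraries and cortex gave 5 EE and 5 SH libraries. The labels name neither fetuses nor litters, so p-values measure only the spread between libraries, which may be technical.

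The postsynaptic density is a protein sheet under the membrane of excitatory synapses. Dlg scaffolds bind receptors there, Dlgap proteins link the Dlg layer to Shank, and Homer links Shank to metabotropic glutamate receptors and internal calcium stores. Neuroligins reach across the cleft to neurexins, and CaMKII is the abundant calcium-dependent kinase of the layer, while gephyrin builds the corresponding scaffold at inhibitory synapses. In the late fetal forebrain most of these synapses have yet to form.

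Levels are in FPKM, a read count scaled to transcript length and library size, and differences are differences of log2(FPKM + 1), which understate the change of low genes. Between 10639962 and 20018783 reads per library could be recovered from the FPKM values, with at least 103 reads for every gene of the list in every library. Tissue labels were checked against markers: Prox1 averaged 12.2 FPKM in hippocampus and 2.42 FPKM in cortex, and Zbtb20 11.2 FPKM in hippocampus and 1.78 FPKM in cortex. Hippocampal field markers went both ways, as given below. The 8 of them summed to 44.8 to 85.3 FPKM in hippocampal libraries and 34.5 to 55.5 FPKM in cortical ones of replicates 1 to 3, with overlap. Choroid plexus genes summed to 5132, 10575 and 17076 FPKM in hippocampus EE 1, EE 2 and SH 1, against 41.7 to 153 FPKM in the other hippocampal libraries. The library cortex SH 3 stood apart, with a summed FPKM of 510540 against 338885 to 395736 in the other 15, and results are given with and without it.

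Cnih2, which escorts AMPA receptors out of the endoplasmic reticulum, was highest at 186 ± 28.2 FPKM in hippocampus and 249 ± 47.7 FPKM in cortex (SD, n = 6 each, replicates 1 to 3). Camk2b and Dlg4 took the next ranks in both tissues, with Camk2b ahead in hippocampus (103 ± 26.0 against 79.4 ± 10.8 FPKM) and Dlg4 ahead in cortex (116 ± 15.6 against 104 ± 5.20 FPKM). The ranges of Camk2b and Dlg4 overlapped within each tissue. Nlgn2, the neuroligin of inhibitory synapses, had rank 4 in both. These 4 genes held 54.2 to 62.1% of the summed FPKM of the list in hippocampal libraries and 57.7 to 71.0% in cortical libraries of replicates 1 to 3. At the other end, Dlgap2 averaged 1.12 ± 0.338 FPKM in hippocampus and 1.25 ± 0.421 FPKM in cortex. Below 10 FPKM lay 14 of the 30 genes in each tissue.

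**Figure D1:**
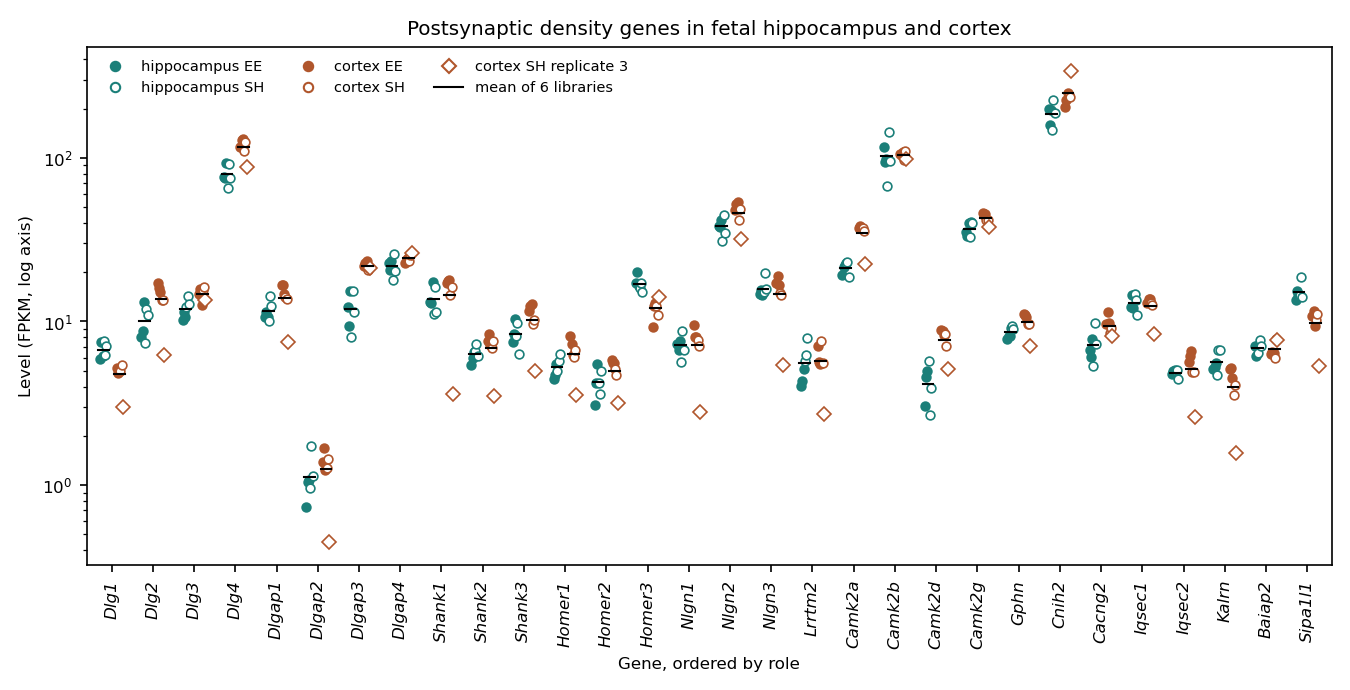
Level of each gene in FPKM (log axis) in the 6 hippocampal and 6 cortical libraries of replicates 1 to 3, one point per library, with the mean of 6 as a bar. Filled points are EE and open points SH, and the diamond is cortex SH 3, which was the lowest of the 6 cortical libraries for 23 of the 30 genes.

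The comparison of hippocampus with cortex asks which of these genes differ between the tissues, over 12 libraries (replicates 1 to 3) with a term for treatment. Of the 30 genes 10 passed an adjusted p of 0.05 (limma, Benjamini-Hochberg over 13138 genes), 3 higher and 7 lower in hippocampus. Over all genes tested 35.4% passed, 24.6% higher and 10.8% lower. At an unadjusted p under 0.05 stood 13 of the 30 and 45.2% of all genes. The median log2 difference of the 30 was -0.16, against 0.09 over all genes. In bulk tissue fewer cells of a type and less RNA per cell cannot be told apart. Without cortex SH 3 the count was 18 of 30, 3 higher and 15 lower, where 43.7% of all genes passed, 28.5% higher and 15.2% lower, and the median was -0.25 against 0.08. With median-of-ratios scaling 3 were higher and 10 lower, and over all genes 2285 were higher and 2105 lower, against 3226 and 1423 in the unscaled fit. Groups did not overlap for 4 of the 30 genes, or 13.3%, against 20.4% of all genes. For each of these 4, Dlg1, Dlgap3, Homer3 and Sipa1l1, a library of cortex replicates 4 or 5 reached into the hippocampal range. Those libraries, of another replicate set, are outside this comparison.

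The upstream sequences of Dlg1, which rose in hippocampus, and of Dlgap3 and Camk2d, which fell, are shown because these genes passed whichever library was left out. They also have a start in the RefSeq promoter table (GRCm38.p6) whose upstream window touches no annotated exon. The 250 bases upstream of the most upstream start are shown for them, 5′ to 3′ on the plus strand, with GC boxes (GGGCGG on either strand) in capitals. The windows are chr16:31663193-31663442 for Dlg1, chr4:127172630-127172879 for Dlgap3 and chr3:126596701-126596950 for Camk2d.
Dlg1: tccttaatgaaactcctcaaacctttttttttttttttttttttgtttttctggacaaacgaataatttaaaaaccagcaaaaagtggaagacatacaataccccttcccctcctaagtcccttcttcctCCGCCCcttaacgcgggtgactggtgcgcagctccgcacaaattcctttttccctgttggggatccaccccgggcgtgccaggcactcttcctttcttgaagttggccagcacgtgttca
Dlgap3: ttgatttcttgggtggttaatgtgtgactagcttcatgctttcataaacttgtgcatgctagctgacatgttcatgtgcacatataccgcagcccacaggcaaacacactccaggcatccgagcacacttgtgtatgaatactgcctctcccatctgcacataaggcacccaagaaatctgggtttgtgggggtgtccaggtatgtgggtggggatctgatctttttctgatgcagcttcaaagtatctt
Camk2d: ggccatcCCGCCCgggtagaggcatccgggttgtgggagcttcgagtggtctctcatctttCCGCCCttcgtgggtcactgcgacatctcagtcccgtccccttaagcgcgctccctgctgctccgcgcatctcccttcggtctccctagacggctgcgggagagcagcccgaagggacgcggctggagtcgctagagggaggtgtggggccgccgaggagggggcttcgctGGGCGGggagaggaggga
The Dlgap3 and Camk2d windows lie inside the annotated genes, upstream of an internal start. The Dlg1 window held 1 GC box, the Dlgap3 window 0 and the Camk2d window 3, with a GC content of 46.0, 46.8 and 68.4%. Neither the cAMP response element TGACGTCA, nor TATAAA, nor the palindromic NRF1 site was found on either strand of these windows. None of these motifs contains another. Among 38 such windows of the 23 genes of the list with a start in the table, 47.4% held a GC box, against 32.7% of 32851 windows of all genes. The median GC content was 59.2% in the windows of the list and 52.4% in all. Its part in the GC box counts was not tested. TATAAA was in 13.2% of the windows of the list and 12.4% of all, TGACGTCA in 0 and 1.55%, and the NRF1 site in 0 and 0.782%.

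**Figure D2:**
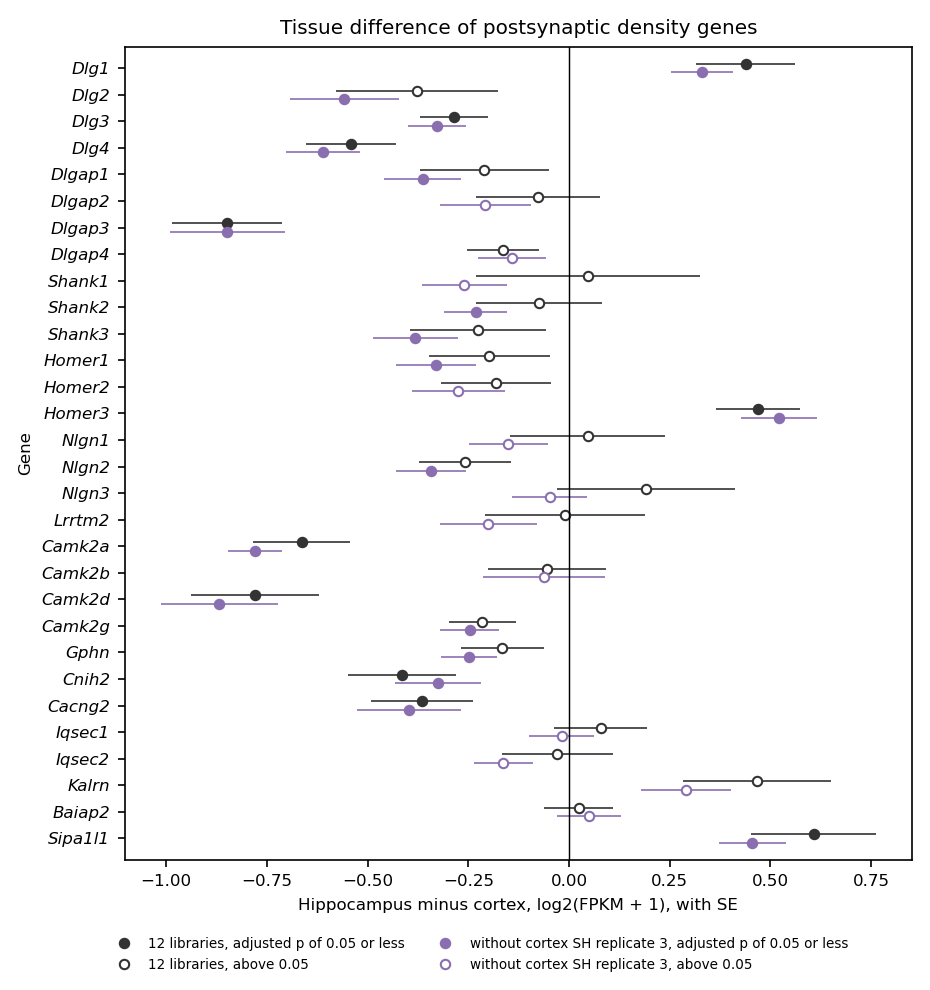
Difference of hippocampus minus cortex for each gene in log2(FPKM + 1), with its SE, over 12 libraries (dark) and without cortex SH 3 (violet), and filled where the adjusted p was 0.05 or less. Dlg1, Homer3 and Sipa1l1 lie to the right in both fits, and Dlgap3, Camk2d, Camk2a and Dlg4 farthest to the left.

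Among the Dlg scaffolds, Dlg1 was higher and Dlg3 and Dlg4 were lower in hippocampus. Dlg1 encodes SAP97, which also serves epithelia, and lies on chromosome 16 from 31663443 to 31875129 (plus strand, mm10, GENCODE M21). Its level was 5.90, 6.63 and 7.63 FPKM (lowest, median and highest of 6) in hippocampus, against 2.99, 5.06 and 5.399 FPKM in cortex. No hippocampal library was as low as any cortical one of replicates 1 to 3, a log2 difference of 0.44 ± 0.12 (SE, limma, adjusted p = 0.0149). Dlg4, the gene of PSD-95 on chromosome 11 (70016942 to 70047522), measured 65.0, 76.0 and 92.7 FPKM in hippocampus, against 87.9, 120.2 and 129.95 FPKM in cortex. The groups met only at cortex SH 3, the lowest cortical library, and the log2 difference was -0.54 ± 0.11 (SE, limma, adjusted p = 0.00271). Dlg3, the X-linked SAP102 gene, had 10.2, 11.8 and 14.2 FPKM in hippocampus and 12.5, 15.2 and 16.2 FPKM in cortex (log2 difference -0.29 ± 0.09, SE; limma, adjusted p = 0.0204). Its groups overlapped. Dlg2, the gene of PSD-93, had medians of 9.83 FPKM in hippocampus and 14.3 FPKM in cortex, and passed without cortex SH 3 (log2 difference -0.56; limma, adjusted p = 0.00619) but not with it (-0.38, 0.162).

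Dlgap3 had the largest log2 difference of the 30 genes over 12 libraries, while without cortex SH 3 that of Camk2d was larger (-0.87 against -0.85), as it was without the choroid plexus libraries (-0.80 against -0.59). It encodes SAPAP3, a linker whose loss causes compulsive grooming in mice, and lies on chromosome 4 from 127169204 to 127237022. Its level was 12.3, 9.36 and 15.3 FPKM in hippocampus EE 1 to 3 and 8.08, 15.4 and 11.4 FPKM in hippocampus SH 1 to 3, against 21.8, 22.8 and 23.5 FPKM in cortex EE 1 to 3 and 20.5, 21.3 and 21.1 FPKM in cortex SH 1 to 3. Every hippocampal library lay below every cortical one of replicates 1 to 3, and the hippocampal values were the more scattered. In the other replicate set, cortex SH 5 was at 15.2 FPKM, below hippocampus EE 3 and SH 2. The log2 difference was -0.85 ± 0.14 (SE, limma, adjusted p = 5.6e-04) and stayed between -0.94 and -0.75 when any 1 library was left out. The other 3 linkers did not pass over 12 libraries: Dlgap1 was at -0.21, Dlgap2 at -0.08 and Dlgap4 at -0.16 on the log2 scale. Dlgap1 passed without cortex SH 3 (-0.36; limma, adjusted p = 0.00917), its level being 7.53 FPKM in cortex SH 3 against 13.8 to 16.7 FPKM in the other cortical libraries of replicates 1 to 3.

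None of the 3 Shank genes, the master scaffolds of the deep layer, passed over 12 libraries. Shank1 was at 11.1, 13.003 and 17.5 FPKM in hippocampus and 3.60, 16.6 and 17.9 FPKM in cortex (lowest, median and highest). Its lowest cortical value was that of cortex SH 3. Shank3 had medians of 8.27 FPKM in hippocampus and 10.9 FPKM in cortex, and Shank2, the least abundant of the family, 6.33 FPKM in hippocampus and 7.41 FPKM in cortex. Without cortex SH 3, Shank2 (log2 difference -0.23) and Shank3 (-0.38) passed as lower in hippocampus (limma, adjusted p = 0.0307 and 0.0122).

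Homer3 rose in hippocampus, while Homer1 and Homer2 had lower means there and did not pass over 12 libraries. Homer3 is on chromosome 8 (70282827 to 70294361) and had 15.1, 16.8 and 20.1 FPKM in hippocampus, against 9.26, 12.5 and 14.2 FPKM in cortex. The groups did not overlap, and the log2 difference was 0.47 ± 0.10 (SE, limma, adjusted p = 0.00428). Ddx49, an RNA helicase gene, overlaps 25.4% of the exonic bases of Homer3, and the labels do not say whether strand was used in counting, so the Homer3 value is uncertain. Ddx49 itself measured 27.3 ± 1.897 FPKM in hippocampus and 28.6 ± 8.88 FPKM in cortex (SD, n = 6 each), a log2 difference of -0.02 (limma, adjusted p = 0.920). The cortical mean was raised by cortex SH 3, at 46.55 FPKM. Without that library Ddx49 was at 24.98 ± 1.23 FPKM in cortex (SD, n = 5), below the hippocampal mean. Ddx49 then went in the same direction as Homer3, though its groups overlapped. Homer1, whose long forms bridge Shank and mGluR5, measured 5.28 ± 0.697 FPKM in hippocampus and 6.33 ± 1.55 FPKM in cortex. It passed without cortex SH 3 (log2 difference -0.33; limma, adjusted p = 0.0178). Homer2 was at 3.11, 4.203 and 5.495 FPKM in hippocampus, against 3.18, 5.32 and 5.81 FPKM in cortex, and passed in neither fit.

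None of the synaptic adhesion genes passed between the tissues over 12 libraries. Nlgn2 was at 31.2, 38.3 and 44.5 FPKM in hippocampus and 32.02, 48.3 and 53.9 FPKM in cortex, and did not pass over 12 libraries. It passed without cortex SH 3 (log2 difference -0.34; limma, adjusted p = 0.00771) and with a term for fetal sex (-0.35, 0.0375). Nlgn1, the neuroligin of excitatory synapses, had medians of 7.02 and 7.84 FPKM, and Lrrtm2, a neurexin ligand of excitatory synapses, 5.42 and 5.63 FPKM, in hippocampus and cortex. Nlgn3, X-linked, had a log2 difference of 0.19 with cortex SH 3 and -0.05 without it. Another gene, Gm21986, overlaps 41.2% of the exonic bases of Nlgn3, so its values are uncertain too. The scaffold gene Gphn had 7.85, 8.601 and 9.43 FPKM in hippocampus and 7.12, 10.2 and 11.04 FPKM in cortex, and passed as lower without cortex SH 3 (log2 difference -0.25; limma, adjusted p = 0.0129).

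Of the 4 CaMKII subunits, Camk2a and Camk2d fell in hippocampus. Camk2a, the alpha subunit that dominates the adult forebrain (chromosome 18, 60925618 to 60988152), had 18.7, 21.8 and 23.2 FPKM in hippocampus, against 22.6, 37.1 and 38.1 FPKM in cortex. The lowest cortical value was again cortex SH 3, and the other 5 cortical libraries, all at 35.6 FPKM or more, lay above all 6 hippocampal ones. The log2 difference was -0.66 ± 0.12 (SE, limma, adjusted p = 0.00126), and -0.78 ± 0.07 without that library. Camk2d, the delta subunit found in many tissues (chromosome 3, 126596302 to 126846326), was at 2.68, 4.23 and 5.70 FPKM in hippocampus and 5.12, 8.32 and 8.84 FPKM in cortex. Again only cortex SH 3 reached into the hippocampal range (log2 difference -0.78 ± 0.16, SE; limma, adjusted p = 0.00248). Camk2b, the actin-binding beta subunit, was the most abundant at 67.5, 96.4 and 145 FPKM in hippocampus and 97.0, 105 and 109 FPKM in cortex, and did not pass (log2 difference -0.05). Camk2g had a log2 difference of -0.22, with an adjusted p of 0.0599 over 12 libraries and 0.0176 without cortex SH 3 (limma).

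Both AMPA receptor partners were lower in hippocampus, but less firmly. Cnih2 (chromosome 19, 5092868 to 5098521) was at 148, 192 and 226 FPKM in hippocampus and 204, 239 and 341 FPKM in cortex. Here cortex SH 3 was the highest library and not the lowest, and the groups overlapped (log2 difference -0.41 ± 0.13, SE; limma, adjusted p = 0.0298). Cacng2, or stargazin, which anchors AMPA receptors to PSD-95, had 5.33, 7.002 and 9.79 FPKM in hippocampus and 8.14, 9.37 and 11.3 FPKM in cortex (log2 difference -0.37 ± 0.13, SE; limma, adjusted p = 0.0402). Of the 12 fits that left out 1 library, Cnih2 passed in 8 and Cacng2 in 3, with adjusted p-values of up to 0.0711 and 0.0974. By contrast Dlg1, Dlg4, Dlgap3, Homer3, Camk2a, Camk2d and Sipa1l1 passed in all 12, and Dlg3 in 11.

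Among the regulators of small GTPases, Sipa1l1 rose in hippocampus. Its product SPAR, a Rap GTPase-activating protein that binds PSD-95 and actin, is encoded on chromosome 12 from 82169320 to 82451786. Sipa1l1 was at 13.5, 14.5 and 18.6 FPKM in hippocampus, against 5.35, 10.6 and 11.6 FPKM in cortex. The groups did not overlap (log2 difference 0.61 ± 0.15, SE; limma, adjusted p = 0.00930). Kalrn, an exchange factor for small GTPases in spines, had 4.69, 5.44 and 6.73 FPKM in hippocampus and 1.56, 4.29 and 5.16 FPKM in cortex and did not pass (log2 difference 0.47; adjusted p = 0.0658, and 0.0518 without cortex SH 3, limma). Iqsec1 and Iqsec2, exchange factors for Arf6, and Baiap2, the actin regulator IRSp53, had log2 differences between -0.03 and 0.08 and did not pass.

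Cell type markers moved with the tissue. The 12 markers of postmitotic neurons summed to 2261 to 3606 FPKM in hippocampal libraries and 4013 to 4753 FPKM in cortical ones, with 6 of 12 lower in hippocampus (limma, adjusted p of 0.05 or less). Of 10 genes of radial glia and progenitors 9 were higher, with sums of 1251 to 1968 FPKM in hippocampus and 1084 to 1783 FPKM in cortex. All 8 genes of GABAergic interneurons were lower (sums of 160 to 294 FPKM in hippocampus and 572 to 1131 FPKM in cortex), as were 7 of 8 genes of striatal projection neurons (13.1 to 43.2 FPKM in hippocampus and 103 to 153 FPKM in cortex). Of the other lists, astrocyte genes were higher for 3 and lower for 2 of 7, and oligodendrocyte genes lower for 2 of 7. Endothelial genes were higher for 2 of 7, microglial genes passed for 0 of 8, meningeal genes were lower for 3 of 7 and erythroid genes for 1 of 5 tested. Hippocampal field markers were higher for 5 and lower for 3 of 8, and neocortical layer markers higher for 1 and lower for 4 of 7. The part of these cells in the differences was not tested, but each library was also set against the mean log2 level of its neuron markers. That scale added the same 0.42 to the log2 difference of each of the 30 genes and moved the median of all genes to 0.51, so the signs on it follow from the scaling. Of the 30 genes 9 then passed as higher and 1, Dlgap3, as lower (log2 difference -0.43; limma, adjusted p = 0.00776), where 63.5% of all genes passed, and 17 differences turned positive.

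The hippocampal libraries with choroid plexus signal (EE 1, EE 2 and SH 1) had neuron marker sums of 3422, 2748 and 2261 FPKM, against 3075 to 3606 FPKM in the other 3. Without the 3 libraries with choroid plexus signal, 3 of the 30 genes passed, all lower, where 16.5% of all genes did, 10.5% higher and 5.99% lower. These were Dlgap3 (log2 difference -0.59; limma, adjusted p = 0.00617), Camk2a (-0.63, 0.0266) and Camk2d (-0.80, 0.00833). The other 7 genes did not pass there. Sipa1l1, Dlg1 and Homer3 had log2 differences of 0.68, 0.41 and 0.40, with adjusted p-values of 0.0568, 0.108 and 0.0688 (limma). Dlg4 was at -0.38 (adjusted p = 0.0788), Cnih2 at -0.31 (0.196), Dlg3 at -0.24 (0.182) and Cacng2 at -0.14 (0.477). Of the hippocampal libraries left in this fit EE 3 and SH 2 were female by the genes given below, while the cortical ones were all male.

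Within a family, the share of each gene in the summed FPKM does not depend on the scaling of a library. Permuting tissue labels within treatment gave an exact two-sided test whose smallest p over 400 arrangements was 0.005, adjusted over 21 shares. Dlg1 held 6.34 ± 1.29% of the Dlg sum in hippocampus and 3.17 ± 0.297% in cortex (SD, n = 6 each; exact permutation p = 0.005, adjusted 0.042), with no overlap. Its share was 5.86, 7.26 and 8.27% in hippocampus EE 1, EE 2 and SH 1, which had choroid plexus signal. In EE 3, SH 2 and SH 3 it was 5.03, 5.005 and 6.63%. Shares were not tested without the choroid plexus libraries. Dlg4 held 73.3 ± 2.29% in hippocampus and 77.9 ± 1.60% in cortex (exact permutation p = 0.01, adjusted 0.042). The share of Dlgap3 in its family was 25.4 ± 3.21% in hippocampus and 35.6 ± 1.55% in cortex, with no overlap (exact permutation p = 0.005, adjusted 0.042), and that of Dlgap4 was 47.1 ± 1.93% and 39.98 ± 4.002% (0.015, adjusted 0.045). Cortex replicates 4 and 5, outside this test, lay nearer to hippocampus. There Dlgap3 averaged 30.6% in EE and 28.4% in SH, overlapping the hippocampal range, and Dlgap4 46.0% and 45.1% (n = 2 each). Nlgn2 held 62.3 ± 2.07% of the neuroligin sum in hippocampus and 68.8 ± 5.65% in cortex, and Nlgn3 26.1 ± 2.30% and 20.9 ± 3.87%. Camk2a held 13.2 ± 2.56% of the CaMKII sum in hippocampus and 18.2 ± 2.27% in cortex. These 7 shares passed, and 14 did without cortex SH 3, where Homer3 held 64.0 ± 4.85% of the Homer sum in hippocampus and 48.7 ± 5.25% in cortex (exact permutation p = 0.005, adjusted 0.0175). With cortex SH 3 the cortical share of Homer3 was 51.9 ± 9.09% (exact permutation p = 0.025, adjusted 0.0525). The adjusted values lie close to the threshold: in 8 of the 12 tests that left out 1 library, 0 shares passed, with smallest adjusted values of 0.0525 to 0.075.

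**Figure D3:**
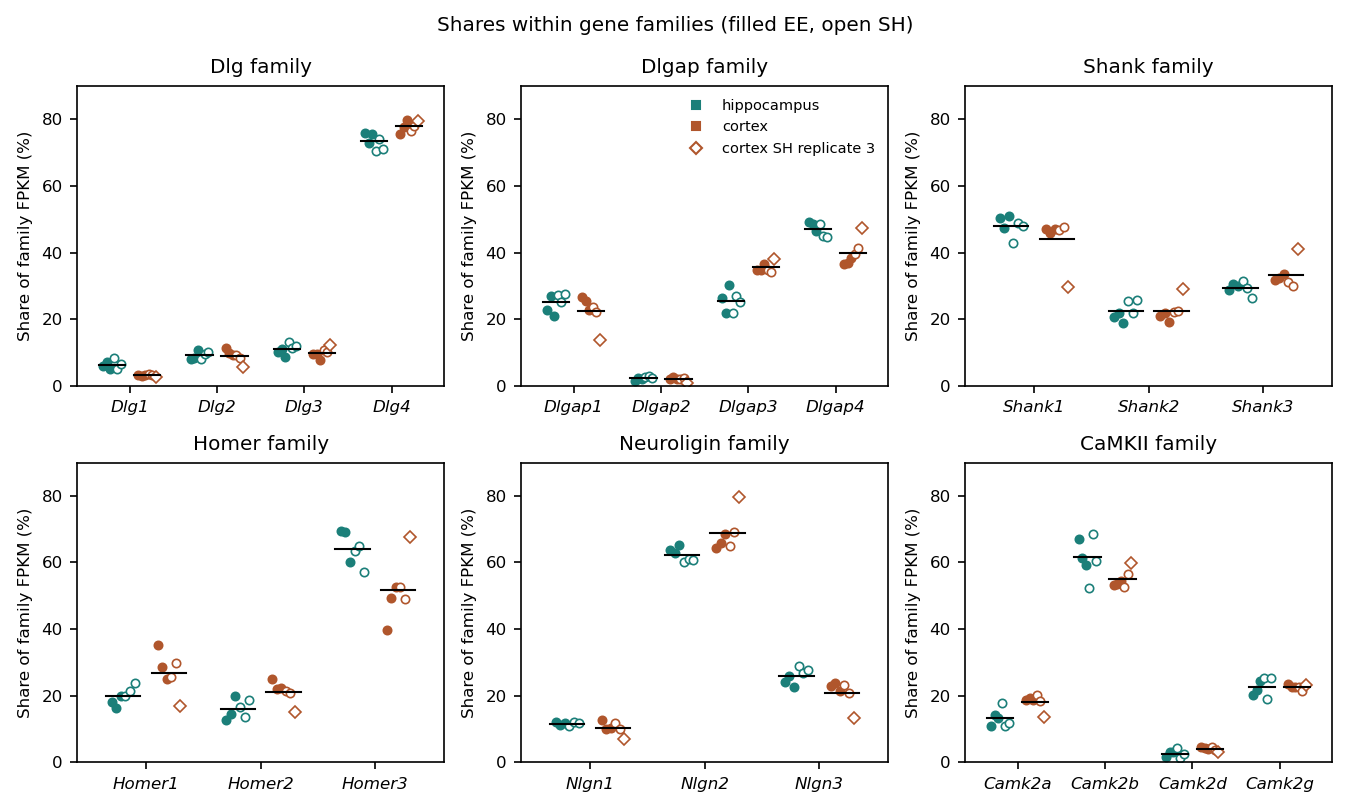
Share of each gene in the summed FPKM of its family, in percent, per library of hippocampus and cortex (replicates 1 to 3), with means of 6 as bars. The Dlg1 and Dlgap3 points of the tissues do not overlap, and cortex SH 3 (diamond) lies at the edge of the cortical points for most genes.

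For comparison, 96 of 99 other postsynaptic genes could be tested between the tissues: 9 were higher and 31 lower in hippocampus, with a median of -0.24. That was 41.7% of them, against 35.4% of all genes. Without cortex SH 3, 9 were higher and 50 lower (61.5%, against 43.7% of all genes), and without the 3 hippocampal libraries with choroid plexus signal 7 were higher and 8 lower (15.6%, against 16.5%). Among AMPA receptor partners, Shisa6 rose (12.1 ± 1.48 FPKM in hippocampus and 4.55 ± 1.72 FPKM in cortex, log2 difference 1.31), as did Cnih3 (0.53) and Cacng5 (0.37), while Cacng3 fell (7.99 ± 2.61 and 19.4 ± 1.84 FPKM, -1.23). These 4 were the only ones of that list of 13 to pass. The CaMKII inhibitor gene Camk2n2 fell to 36.2 ± 8.26 FPKM in hippocampus against 89.5 ± 27.7 FPKM in cortex (-1.27), and the Ras exchange factor gene Rasgrf1 to 0.993 ± 0.319 FPKM against 3.65 ± 0.624 FPKM (-1.23). Of 13 genes of the inhibitory postsynapse 8 were lower, among them Gabra3 (-1.31), and 2 were higher, the receptor subunits Gabra2 (0.88) and Gabrb1 (0.77). Of 21 other scaffolds and adaptors 5 were lower, led by the kinase anchor Akap5 (-0.97), and 0 higher. Of 12 tested glutamate receptor genes 3 were lower, among them Grin3a and Grin1, and of 22 adhesion genes 9 were lower and 3, among them Ptprs (0.81), higher. SDs are of 6 libraries each, and passing means an adjusted p of 0.05 or less by limma over all genes.

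The comparison of EE with SH asks whether these genes differ after prenatal enrichment. None of the 30 passed in any block of libraries. In hippocampus (3 EE and 3 SH) 0 passed of the 30 and 0% of 13324 genes (limma). At an unadjusted p under 0.05 stood 2 of the 30, against 3.78% of all genes, and limma-voom on recovered reads also called 0. The median difference of the 30 was -0.03 and 11 were positive. In the cortex (5 EE and 5 SH, fitted with the replicate set, 1 to 3 or 4 and 5, as covariate) 0 of 30 passed and 0.00799% of 12519 genes did, with 3 of the 30 at an unadjusted p under 0.05 against 7.46% of all genes, and 0 by limma-voom. The smallest adjusted p of the 30 was 0.595. Without cortex SH 3, 0 of 30 passed and 0.0239% of all genes did, and the smallest adjusted p of the 30 was 0.349 (limma).

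The genes at an unadjusted p under 0.05 in hippocampus were Lrrtm2 and Dlg3. Lrrtm2 was at 4.04, 4.31 and 5.10 FPKM in EE 1 to 3, against 5.75, 6.25 and 7.89 FPKM in SH 1 to 3, so that all EE libraries lay below all SH ones (log2 difference -0.47 ± 0.15, SE; limma, unadjusted p = 0.0147, adjusted 0.9996). Dlg3 was at 10.2, 11.49 and 10.6 FPKM in EE and 12.2, 14.2 and 12.8 FPKM in SH (-0.26 ± 0.10, unadjusted p = 0.0395, adjusted 0.9996, limma). By chance alone 3 libraries are set fully apart from 3 others with a probability of 0.1. In hippocampus 3 of the 30 genes, or 10%, had no overlap between EE and SH. In cortex replicates 1 to 3, also 3 against 3, there were 14 of 30 (46.7%). In cortex replicates 4 and 5, with 2 EE and 2 SH, there were 11 (36.7%), and over all cortical libraries 2 (6.67%). The shares over all genes were not computed for these counts, and genes are not independent. In cortex replicates 4 and 5 Lrrtm2 was also lower in EE, at 4.59 and 6.07 FPKM, against 7.38 and 9.28 FPKM in SH (log2 difference -0.56; limma, adjusted p = 0.154). In cortex replicates 1 to 3 it was at 7.10, 5.68 and 5.49 FPKM in EE and 7.61, 5.58 and 2.72 FPKM in SH, with overlap. Dlg3 in cortex was at 14.8, 15.7, 12.5, 15.1 and 12.5 FPKM in EE 1 to 5. In SH 1 to 5 it was at 15.6, 16.2, 13.5, 18.4 and 17.4 FPKM, with overlap. Without cortex SH 3 its log2 difference in cortex was -0.24 (limma, unadjusted p = 0.0309, adjusted 0.382).

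In cortex replicates 1 to 3 (3 EE and 3 SH) the size of the differences moved with cortex SH 3. None of 30 passed (0% of 12870 genes, limma; 3 of the 30 and 9.29% of all genes at an unadjusted p under 0.05, and 0 by limma-voom), while 25 differences were positive with a median of 0.28. Without cortex SH 3, 22 were positive with a median of 0.12, again with 0 passing (0.0932% of all genes passed). The smallest adjusted p of the 30 was then 0.169 (Shank3, limma). Shank1, with the largest difference of this block, was at 17.1, 17.6 and 17.9 FPKM in EE 1 to 3 and 14.6, 16.2 and 3.60 FPKM in SH 1 to 3. The log2 difference was 0.79 with cortex SH 3 and 0.18 without it. In cortex replicates 4 and 5 (2 EE and 2 SH) 0 of 30 passed where 3.47% of all genes did (3 of the 30 and 17.1% at an unadjusted p under 0.05, and 0 by limma-voom), the median was -0.08 and 8 were positive. Without EE 5 the lone EE library was EE 4, the one cortical library without Y-linked signal, in which Nlgn3 was at 11.2 FPKM against 16.8 to 19.0 FPKM in the other cortical EE libraries. Choroid plexus genes also summed to 702 FPKM in EE 4, against 37.0 to 41.3 FPKM in the rest of its block. With EE 4 assumed to vary like the SH libraries, Cnih2 (0.62) was higher and Nlgn3 (-0.79), Lrrtm2 (-0.73) and Sipa1l1 (-0.60) were lower, with adjusted p-values of 0.0340, 0.00210, 0.00883 and 0.0318 (limma), where 14.9% of all genes passed.

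Over all cortical libraries Shank3, Gphn and Cacng2 (log2 difference 0.19) had an unadjusted p under 0.05. Shank3 was at 11.6, 12.4, 12.8, 11.8 and 9.45 FPKM in EE 1 to 5, against 9.69, 10.2, 4.95, 10.05 and 6.92 FPKM in SH 1 to 5. The groups overlapped only through EE 5 (log2 difference 0.46 with cortex SH 3 and 0.29 without it; limma, adjusted p = 0.599 and 0.349). Gphn was at 11.04, 10.9, 10.7, 9.94 and 10.7 FPKM in EE and 9.71, 9.63, 7.12, 7.61 and 9.56 FPKM in SH, with no overlap (log2 difference 0.27; limma, adjusted p = 0.595). In hippocampus, by contrast, every EE library was below every SH library for Gphn, at 7.85, 8.19 and 8.15 FPKM against 9.06, 9.43 and 9.01 FPKM. The difference between these EE effects did not pass (interaction -0.45; limma, unadjusted p = 0.0202, adjusted 0.494, and 0.738 without cortex SH 3).

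**Figure D4:**
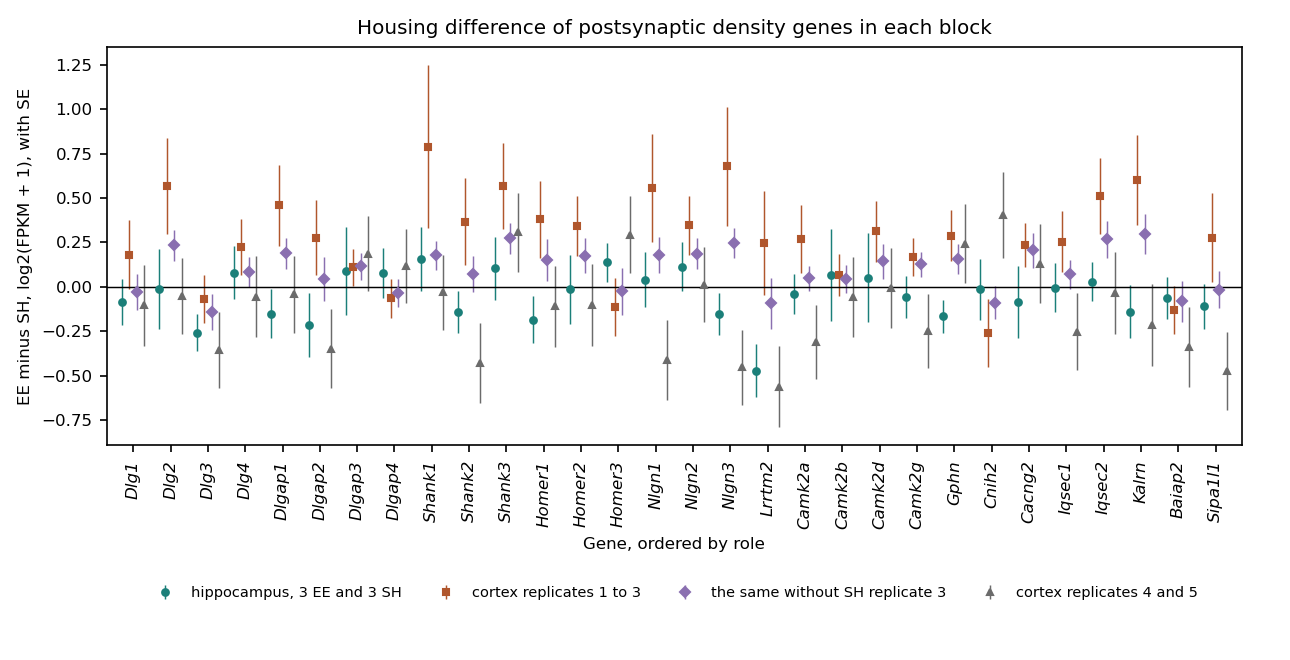
Difference of EE minus SH for each gene in log2(FPKM + 1), with its SE, in hippocampus, in cortex replicates 1 to 3 with and without SH 3, and in cortex replicates 4 and 5. In cortex replicates 1 to 3 the median is 0.28 with SH 3 and 0.12 without it, and in replicates 4 and 5 it is -0.08, with 8 of 30 points above 0.

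The EE effects were also tested against each other. None of the 30 passed for hippocampus against cortex (0% of 13138 genes; limma; 2 of the 30 and 7.52% of all genes at an unadjusted p under 0.05, and 0 by limma-voom), nor for cortex replicates 1 to 3 against 4 and 5 (0% of 12519 genes; 2 of the 30 and 19.4%, and 0 by limma-voom). Medians of the 30 interaction differences were -0.34 and 0.43, and -0.13 and 0.24 without cortex SH 3. Without that library 0 of 30 passed in either test (0% of all genes between tissues and 0.0239% between replicate sets). The smallest adjusted p-values of the 30 were 0.738 between tissues and 0.158 between replicate sets (limma).

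Cortex SH 3 was the lowest of the 6 cortical libraries of replicates 1 to 3 for 23 of the 30 genes, against 44.9% of all genes, and the highest for 3. Its median deviation from the other 5 was -0.61 over the 30 genes and -0.07 over all genes, and 26 of the 30 were below. Across 12384 genes its deviation and transcript length had a Spearman correlation of -0.79. That correlation was 0.24 to 0.68 for the other 5 libraries; all values share the block mean and genes are not independent. The 30 genes have a median transcript length of 5693 bases, against 3123 bases over all genes, and for Cnih2, whose transcript of 1343 bases is the shortest, cortex SH 3 was the highest library. The part of RNA quality or library preparation in this was not tested.

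**Figure D5:**
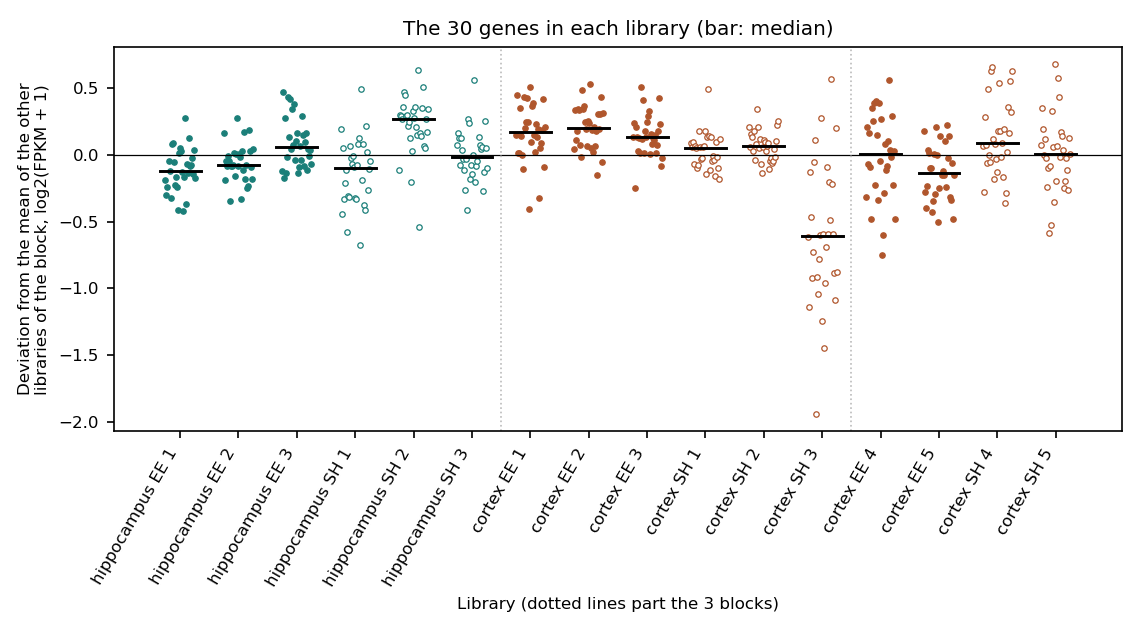
Deviation of each of the 30 genes from the mean of the other libraries of its block, in log2(FPKM + 1), for the 16 libraries, with the median as a bar (filled EE, open SH). Cortex SH 3 has a median of -0.61, and the medians of the other 15 libraries lie between -0.14 and 0.27.

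Sex differed between libraries without being a term of these fits. By Y-linked genes and Xist, 13 libraries were male, and hippocampus EE 3 and SH 2 were female. Cortex EE 4 had no Y-linked signal but Xist at only 0.993 FPKM, against 70.8 to 81.1 FPKM in the female hippocampal libraries, and was grouped with the female ones. Among X-linked genes, Dlg3 had 10.6 to 14.2 FPKM in female and 10.2 to 12.8 FPKM in male hippocampal libraries. In cortex EE 4 Dlg3 lay inside the male range of replicates 4 and 5. Nlgn3 was at 11.2 FPKM in cortex EE 4 against 17.6 to 22.7 FPKM in the male libraries of replicates 4 and 5. In hippocampus the female mean of Nlgn3 was the higher one, with overlap (14.6 to 19.65 FPKM in female and 14.6 to 15.8 FPKM in male libraries). Iqsec2 was higher in the female libraries of hippocampus and in cortex EE 4 than in the male ones of the same block, without overlap. With a term for fetal sex 13 of the 30 genes passed between the tissues, 3 higher and 10 lower, where 35.9% of all genes passed. The 6 cortical libraries of that fit were all male. Female hippocampal libraries EE 3 and SH 2 lacked choroid plexus signal, while EE 1, EE 2 and SH 1, which had it, were male. Only hippocampus SH 3 was male without that signal, so sex and choroid plexus content were largely confounded. Between EE and SH 0 of 30 passed with that term (limma), where 0% of all genes passed in hippocampus, 0.00799% in the cortex and 7.96% in cortex replicates 4 and 5. The smallest adjusted p of the 30 was 0.997 in hippocampus and 0.762 in the cortex (limma).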

How the data were processed

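The authors deposited 1 table of FPKM values per library. Per the submitters' processing notes, the tools were cutadapt 1.9, HISAT2 2.0.4, StringTie 1.3.4d, edgeR and DESeq2, with the mm10 build; strand settings are not given in the sources used here. FPKM steps were divided back into whole reads within a tolerance of 0.003 reads, which succeeded for 99.8 to 99.9% of genes per library. Differences were fitted to log2(FPKM + 1) with limma 3.58.1 in R 4.3.3 (eBayes with a trend, two-sided), over genes listed in every library of a fit whose mean was 1 FPKM or more, adjusted by Benjamini-Hochberg over all of them, at a threshold of 0.05. Family shares were tested by exact permutation in Python 3.11.15, and Spearman correlations were computed with scipy 1.17.1. The fits were tested on simulated data. The genes and lists were chosen with earlier results of these data known. All 30 genes are named, with at most 3 higher and 3 lower genes from each other postsynaptic list. Positions are from GENCODE M21. Alternatives were other pseudocounts, filters and scalings, limma-voom, a term for fetal sex, a replicate block and leaving out each library.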

Additional observations from a re-analysis of the deposited data

Results flagged for a closer look

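In groups of 5 cortical libraries, a library was singled out where its gap to the nearest other library was large against the range of the group. Of 102 groups of levels and family shares 13 had such a library, 6 of them cortex SH 3 and 5 cortex EE 4. Chance alone singles out a library in about 1 in 20 groups. In cortex SH 3, Dlg1 was at 2.99 FPKM (4.98 to 5.71 FPKM in the other SH libraries), Dlgap1 at 7.53 FPKM (12.9 to 14.2 FPKM) and Homer2 at 3.18 FPKM (4.68 to 5.10 FPKM). Its family shares of Dlg1, Dlgap1 and Homer2 were 2.70, 13.6 and 15.2%, against lowest values of 3.39, 22.1 and 20.96% in the other SH libraries. In cortex EE 4, Homer2 was at 3.89 FPKM (5.49 to 5.81 FPKM in the other EE libraries), Nlgn3 at 11.2 FPKM (16.8 to 19.0 FPKM) and Baiap2 at 8.28 FPKM (6.14 to 6.53 FPKM). Its share of Shank1 was 53.0% (45.8 to 47.2%) and of Homer2 14.6% (22.1 to 25.01%). Dlgap4 was at 23.4 FPKM in cortex SH 1 (25.4 to 26.2 FPKM), and the share of Dlg3 was 7.71% in cortex EE 3 (9.09 to 9.64%).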

How the results depend on the processing

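Between hippocampus and cortex 10 of 30 genes passed, and 8 to 18 when 1 library was left out (18 without cortex SH 3). Of the alternatives chosen after seeing the data, leaving out the 3 hippocampal libraries with choroid plexus gave 3, and removing the trend on transcript length and GC content over all libraries gave 19, where 16.5% and 45.2% of all genes passed. Setting libraries against neuron markers, also chosen after seeing the data, added 0.42 to every one of the 30 differences, which by construction turned 17 of them positive. Among these are Cacng2 (0.053), Cnih2 (0.0033) and Dlg3 (0.13), which had passed as lower, and Iqsec2 (0.39), which passed as higher on that scale. The EE counts stayed at 0 when 1 library was left out, except 0 to 4 in cortex replicates 4 and 5. Family shares ranged from 0 to 14 against 7, and the share of Camk2g turned to 1.28 points higher in hippocampus with shares of log2 values. The labels do not say whether replicate numbers pair the libraries. Correlations of same-numbered libraries were -0.03 to 0.27 between the tissues and -0.56 to 0.41 between EE and SH. With a replicate block 9 genes passed between tissues, 0 between EE and SH, and 0 shares. For the shares, 64 arrangements allow no p under 0.0312 in the exact permutation test. The 6 shares at that floor had an adjusted 0.109, so this 0 says nothing about stability. Across all values, 1949 of 2051 kept their call when 1 library was left out and 2444 of 2509 under the other alternatives; 0 and 5 reversed. The causes were not tested. Each of the 30 genes had at least 103 recovered reads in every library.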
